A study of Macaca fascicularis with 64 samples.

Results

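The proteasome subunit genes described here are the 36 of 28141 genes whose symbol is PSMA, PSMB, PSMC or PSMD followed by a number, with PSMB11 left out. The rule uses the names alone. By role, 8 encode the alpha ring of the 20S core particle, 7 its constitutive beta ring, 3 the inducible beta subunits of the immunoproteasome, 5 ATPases of the base of the 19S regulatory particle, 10 its other subunits, and 3 the chaperones that assemble the base. PSMC6 is listed under an identifier without its symbol and so stands outside, and PSMD6 was not analysed here.

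RNA sequencing was carried out on tissue of cynomolgus monkeys (Macaca fascicularis), and the series title names a developmental delay on loss of SIRT6, a nuclear deacetylase that acts on histones. The KO animals, KO2 and KO3, were newborns labelled as SIRT6 mutant, written SIRT6-/- in the design text, and no source used here describes the mutation. The WT animals, WT2 and WT3, were wild-type newborns. From each of the 4 animals came 7 tissues (thymus, lung, kidney, liver, heart, muscle and brain), with 2 repeat libraries per tissue, 56 libraries in all. Fetal brain and fetal muscle were wild type, from gestation month 2 and month 4, with 2 libraries per month and tissue, 8 in all. No treatment is named for any group. Values are FPKM, fragments scaled by transcript length and by mapped fragments, and the repeat libraries of an animal were averaged, so that each newborn comparison sets 2 KO animals against 2 WT animals.

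The proteasome degrades proteins tagged with ubiquitin. The 19S particle binds the tagged protein, removes the ubiquitin, unfolds the chain with its ATPases and threads it into the barrel-shaped 20S core, where catalytic subunits of the beta ring cut it. In cells exposed to interferon and in lymphoid tissue, PSMB8, PSMB9 and PSMB10 take the places of PSMB5, PSMB6 and PSMB7 and change which peptides are made for display on class I molecules. In muscle the proteasome is known for the breakdown of contractile protein during wasting.

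Of 20 tissue identity markers in the table, 19 were higher in their own tissue in every animal than in any other tissue, and the exception was MYH6 of heart, with a lowest heart value of 3.09 FPKM and a highest value elsewhere of 5.53 FPKM. SIRT6 itself lay between 3.07 and 12.4 FPKM in KO tissues and between 6.18 and 12.5 FPKM in WT tissues, which checks no label while the mutation is not known. Library depth is unknown, because FPKM values do not hold it. The SD between repeat libraries of an animal had a median of 0.0807 log2 units over the members, and the highest was 0.258, for PSMB9. Nothing states whether repeat libraries, or the libraries of a fetal group, came from separate pieces of tissue or separate fetuses, and p-values in the fetal tests therefore reflect a spread that may be technical.

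The constitutive genes were expressed in every tissue, and the 3 immunoproteasome genes ranged widely between tissues. Over the 28 combinations of animal and newborn tissue, median levels in the alpha ring lay between 37.2 FPKM for PSMA3 and 126 FPKM for PSMA7. In the constitutive beta ring they lay between 48.7 FPKM for PSMB2 and 143 FPKM for PSMB4. The base ATPases lay between 28.8 FPKM for PSMC2 and 65.8 FPKM for PSMC5, and the other 19S subunits between 16.9 FPKM for PSMD1 and 50.6 FPKM for PSMD4. The ranges of the core and the regulatory particle overlapped, with the highest levels per length in the core. The assembly chaperones, which leave the finished particle, were lower, from 5.88 FPKM for PSMD5 to 15.6 FPKM for PSMD9. The immunoproteasome genes had medians between 3.74 FPKM for PSMB8 and 17.9 FPKM for PSMB10. PSMA8, the alpha subunit known from male germ cells, was listed at 0 in 48 of 56 newborn libraries and 7 of 8 fetal libraries, reached at most 0.955 FPKM in an animal, and passed the filter on low values in no comparison, so that tests ran over at most 35 members.

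In WT newborns the ratio of the highest to the lowest tissue mean had a median of 2.00 over the 32 constitutive genes, from 1.44 for PSMA1 to 4.90 for PSMB5. The same ratio was 47.2 for PSMB9, 40.5 for PSMB8 and 7.55 for PSMB10. Thymus was the highest tissue for all 3 immunoproteasome genes, and brain was the lowest for PSMB8 and PSMB9, while muscle was the lowest for PSMB10.

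PSMB9, which takes the place of the caspase-like subunit PSMB6, had 58.7 and 124 FPKM in KO thymus, against 72.1 and 140.1 FPKM in WT thymus. It had 3.19 and 3.99 FPKM in KO brain, against 2.06 and 2.44 FPKM in WT brain. In lung it had 13.0 and 40.6 FPKM in KO animals, against 18.0 and 68.3 FPKM in WT animals. Thymus stood above each other tissue in the same animal, and lung came next in all 4 animals. PSMB8, the partner of the chymotrypsin-like subunit PSMB5, had 11.03 and 36.3 FPKM in KO thymus, against 23.5 and 23.6 FPKM in WT thymus. Its values in brain were 0.785 and 0.237 FPKM in KO animals, against 0.665 and 0.498 FPKM in WT animals. Both genotypes thus had the gene below 1 FPKM in brain and at 11.03 FPKM or more in thymus. PSMB10, the partner of the trypsin-like subunit PSMB7, had 19.6 and 45.1 FPKM in KO thymus, against 46.0 and 55.2 FPKM in WT thymus. In muscle PSMB10 had 3.21 and 4.45 FPKM in KO animals, against 6.70 FPKM in both WT animals. Thymus was the highest tissue for PSMB10 in KO3, WT2 and WT3, while in KO2 heart was highest, at 26.3 FPKM.

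**Figure D1:**
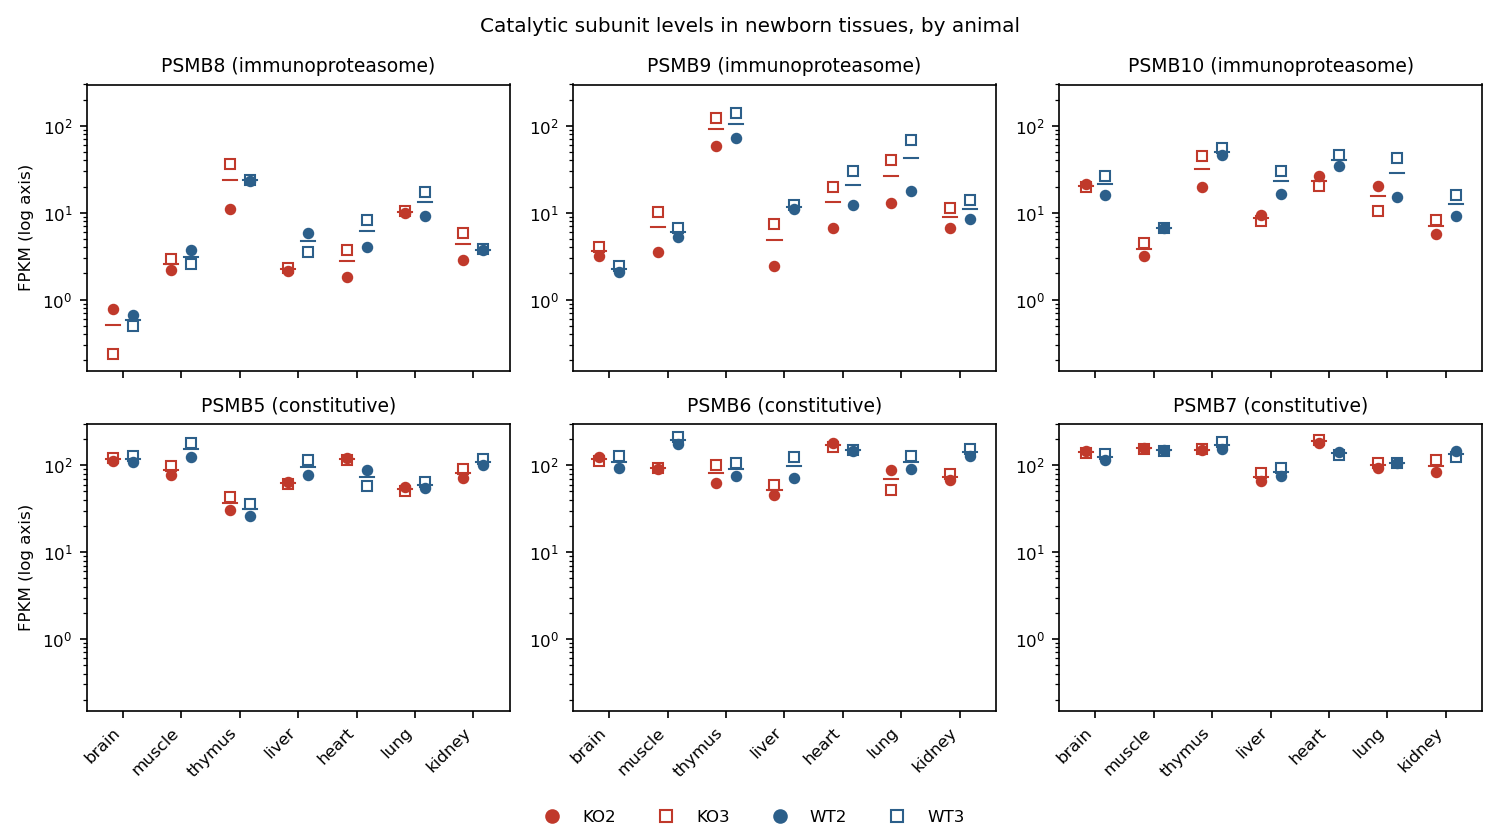
FPKM on a log axis of the immunoproteasome genes PSMB8, PSMB9 and PSMB10 (top) and of their constitutive partners PSMB5, PSMB6 and PSMB7 (bottom) in 7 newborn tissues, 1 point per animal, with a bar at the mean of each genotype. PSMB8 and PSMB9 are highest in thymus in all 4 animals, up to 140.1 FPKM for PSMB9, and PSMB5 is lowest in thymus in all 4 animals.

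The constitutive partners did not share this order. PSMB5 had 30.9 and 42.9 FPKM in KO thymus, against 26.4 and 36.0 FPKM in WT thymus, its lowest tissue in each animal. In muscle PSMB5 had 78.2 and 97.4 FPKM in KO animals, against 124 and 182 FPKM in WT animals. PSMB6 had 90.4 and 94.2 FPKM in KO muscle, against 178 and 211 FPKM in WT muscle, with no overlap of the genotypes. PSMB7 varied less, with 149 and 154 FPKM in KO thymus, against 156 and 188 FPKM in WT thymus. Its lowest values were in liver, at 66.5 and 81.3 FPKM in KO animals, against 75.7 and 93.4 FPKM in WT animals.

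Each tissue was then set against the mean of the other 6 tissues within the 2 WT animals, with limma on log2(FPKM + 1), the animal as a block, and a Benjamini-Hochberg adjusted p under 0.05 over all genes with a mean of 1 FPKM or more. The tissue differences are on this scale, which understates the change of low genes, with ± for the SE where it is given. These contrasts share samples, since each tissue is among the other 6 of the rest. In thymus 11 of 35 members were higher and 3 lower, against 68.9% of all genes tested called in either direction (16 higher and 2 lower after quantile normalisation). In brain 7 were higher and 4 lower, with 66.4% of all genes called (3 higher and 10 lower after quantile normalisation). In muscle 10 were higher and 6 lower, with 61.7% of all genes called, and in liver 1 was higher and 8 lower, with 63.8% called. In heart 1 was higher and 11 lower, with 51.5% called (2 higher and 6 lower after quantile normalisation). In lung 2 were higher and 2 lower, with 46.1% called, and in kidney 3 were higher and 1 lower, with 46.4% called (3 higher and 5 lower after quantile normalisation). In every tissue the share of members called was thus below that of all genes. The median difference over the members lay between -0.29 in heart and 0.16 in muscle, against -0.46 in liver and 0.26 in kidney over all genes tested. After quantile normalisation the members' median turned from below to above 0 in liver (0.05) and from above to below 0 in kidney (-0.14).

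The immunoproteasome genes gave the largest differences among the members. PSMB9 was higher in thymus by 3.14 ± 0.29 (adjusted p = 7.83e-06) and in lung by 1.39 ± 0.29 (adjusted p = 0.00266). PSMB8 was higher in thymus by 2.29 ± 0.27 (adjusted p = 3.9e-05) and in lung by 1.31 ± 0.27 (adjusted p = 0.00258). Both were lower in brain, PSMB9 with a difference of -2.72 ± 0.29 (adjusted p = 1.33e-05) and PSMB8 with -2.33 ± 0.27 (adjusted p = 2.57e-05). In muscle all 3 genes were lower, with differences of -1.80 for PSMB10, -1.40 for PSMB9 and -0.73 for PSMB8. PSMB10 followed its own order elsewhere, higher in thymus by 1.39 ± 0.23 (adjusted p = 0.000334) and in heart by 1.02 ± 0.23 (adjusted p = 0.00419), and lower in kidney (-0.90). In brain PSMB10 differed from the other tissues by -0.07 ± 0.23 (adjusted p = 0.807), where its 2 partners were lowest.

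Genes of peptide supply and display followed PSMB8 and PSMB9 in part. TAP1 and TAP2 encode the transporter that carries the peptides to class I molecules, and both neighbour PSMB8 and PSMB9 in the T2T-MFA8v1.1 annotation, where the span of PSMB9 overlaps that of TAP1. Reads of those overlapping genes cannot be told apart without a strand setting, which is not given. TAP1 was higher in thymus (2.13) and lung (0.68) and lower in liver (-1.46) and kidney (-0.68), and TAP2 was higher in thymus (1.73) and lung (1.21) and lower in brain (-1.34) and muscle (-1.20). Of 10 class I presentation genes, 7 were higher and 0 lower in thymus, 8 higher and 0 lower in lung, and 8 lower and 0 higher in brain. Of 13 tested interferon response genes, 7 were higher and 0 lower in thymus (32.9% of all genes higher), 6 higher and 0 lower in lung (25.4% higher), and 13 lower and 0 higher in brain (34.2% lower). NLRC5, an activator of class I genes, was higher in thymus (1.40) and lower in brain (-1.65).

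Blood cell markers moved with these genes in part. All 12 T lymphocyte markers were higher in thymus, where their summed level was 1345 and 3309 FPKM in KO animals, against 3222 and 4234 FPKM in WT animals, and none of the 12 was at 0. In the other 6 tissues the sum lay between 0.891 and 12.2 FPKM in KO animals and between 0.550 and 18.6 FPKM in WT animals, with CD3G and CD2 at 0 in every brain library. All 6 pan-leukocyte markers were higher in thymus and in lung. In lung the summed pan-leukocyte level was 69.5 and 318 FPKM in KO animals, against 195 and 226 FPKM in WT animals, and in brain 90.01 and 83.1 FPKM, against 61.7 and 115 FPKM. In bulk tissue, fewer cells of a type and less RNA per cell cannot be told apart, and the part of cell makeup in the differences of PSMB8, PSMB9 and PSMB10 was not tested.

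Among constitutive core genes, PSMB5 moved opposite to its replacement. It was lower in thymus, at 26.4 and 36.0 FPKM, against 54.2 to 182 FPKM over the other WT tissues, a difference of -1.61 ± 0.20 (adjusted p = 6.58e-05). It was higher in muscle by 1.02 ± 0.20 (adjusted p = 0.00173) and in brain by 0.62 ± 0.20 (adjusted p = 0.0201). PSMB6 was higher in muscle (0.78) and lower in thymus (-0.51) and liver (-0.44), and PSMB7 was higher in thymus (0.50) and lower in liver (-0.69). Of the structural beta subunits, PSMB1 was lower in heart (-0.47) and PSMB4 in lung (-0.47), while PSMB2 and PSMB3 were called in no tissue.

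The alpha ring gates the entry to the core, and 4 of its 7 tested genes were higher in thymus, where 32.9% of all genes tested were higher. PSMA6 had 121 and 155 FPKM in WT thymus, against 45.9 to 83.4 FPKM over the other WT tissues, a difference of 1.22 ± 0.16 (adjusted p = 9.85e-05). PSMA2 was higher in thymus by 0.85 ± 0.22 (adjusted p = 0.00487), PSMA4 by 0.57 and PSMA7 by 0.50. PSMA4 and PSMA7 lost their calls without the animal block. In heart PSMA2 had 20.1 and 16.9 FPKM, against 28.5 to 71.9 FPKM over the other WT tissues, a difference of -1.20 ± 0.22 (adjusted p = 0.00126). Brain was lower for PSMA3 (-0.71) and PSMA6 (-0.51), liver for PSMA6 (-0.44) and heart for PSMA5 (-0.59), and muscle was higher for PSMA7 (0.37). PSMA1 was called in no tissue.

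Calls in the regulatory particle were mostly higher in muscle and brain, and all lower in heart. Of all genes tested, 14.7% were higher and 47.1% lower in muscle, 32.2% and 34.2% in brain, and 14.3% and 37.2% in heart. Of the 5 ATPases, which unfold the substrate, PSMC1 (0.62), PSMC2 (0.61) and PSMC3 (0.88) were higher in muscle. PSMC3 had 81.3 and 95.4 FPKM in WT muscle, against 30.5 to 67.4 FPKM over the other WT tissues. PSMC5 was higher in kidney (0.70) and lower in liver (-0.43), PSMC1 was lower in liver (-0.51), PSMC3 was lower in thymus (-0.47), and PSMC4 was called in no tissue. In brain the scaffold subunits PSMD1 (0.87) and PSMD2 (0.52), the ubiquitin receptor PSMD4 (0.49), the deubiquitinase PSMD14 (0.69) and the lid subunit PSMD8 (0.59) were higher. PSMD1 had 31.8 and 39.7 FPKM in WT brain, against 13.8 to 27.0 FPKM over the other WT tissues, with an adjusted p of 0.000578. PSMD1 held its call under all 5 alternatives run, PSMD8 lost it without the block, and PSMD2, PSMD4 and PSMD14 lost theirs after quantile normalisation and under at least 1 other alternative each.

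Muscle was higher for PSMD2 (0.58), PSMD3 (0.52), PSMD4 (0.55) and PSMD11 (0.60), of which PSMD3 and PSMD11 are lid subunits, and lower for PSMD14 (-0.68). In heart 5 of the 10 non-ATPase subunits were lower and none higher, against 37.2% of all genes lower and 14.3% higher. The 5 were PSMD14 (-1.01), PSMD3 (-0.80), PSMD12 (-0.77), PSMD11 (-0.62) and PSMD7 (-0.54), the last being the partner of PSMD14. PSMD14 and PSMD3 held their calls under all 5 alternatives run, while PSMD12, PSMD11 and PSMD7 lost theirs after quantile normalisation and without the filter on low values. Liver was lower for PSMD13 (-0.85), PSMD8 (-0.81) and PSMD2 (-0.56) and higher for PSMD3 (0.61). Thymus was higher for PSMD14 (0.63) and PSMD13 (0.48), and lung was lower for PSMD4 (-0.66).

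The assembly chaperones had tissue patterns of their own. PSMD10, also known as gankyrin, was called in 5 of the 7 tissues, more than any other member. It had 3.22 and 5.09 FPKM in WT heart and 4.47 and 5.41 FPKM in WT muscle, against 6.83 to 18.9 FPKM over the other WT tissues. The differences were -1.17 ± 0.15 in heart (adjusted p = 0.000173) and -0.91 ± 0.15 in muscle (adjusted p = 0.000559), against 0.71 in kidney, 0.69 in thymus and 0.62 in brain. PSMD9 was higher in kidney (0.76) and lower in heart (-0.70) and muscle (-0.58), and PSMD5 was lower in heart (-0.67).

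**Figure D2:**
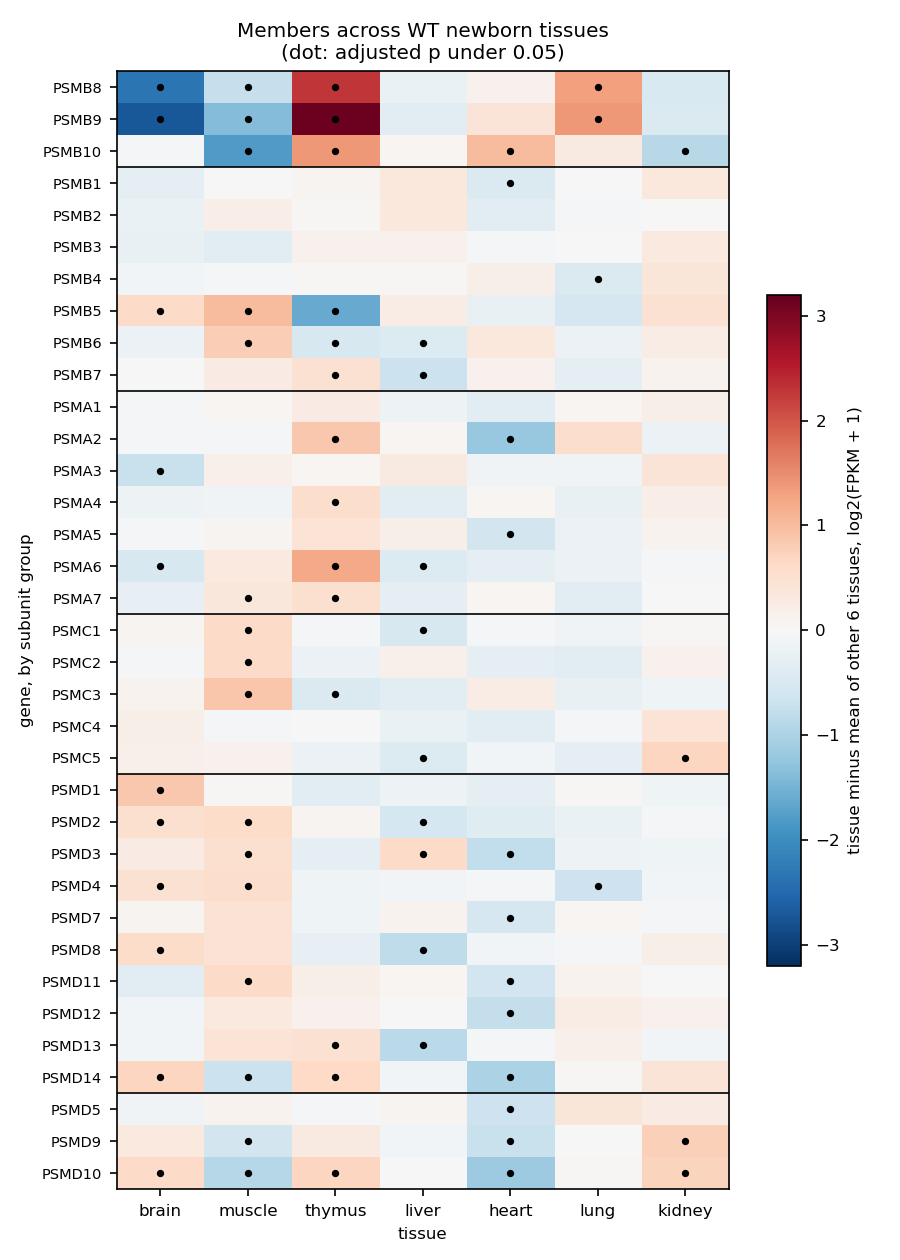
Difference between each WT newborn tissue and the mean of the other 6 tissues, in log2(FPKM + 1), for the tested members (rows, by subunit group) and the 7 tissues (columns), with a dot where the adjusted p was under 0.05. PSMB8 and PSMB9 stand out in thymus (2.29 and 3.14) and brain (-2.33 and -2.72), and PSMB5 shows the opposite sign to them in both.

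Other genes of the pathway were counted beside the members. In muscle 6 of 12 ubiquitin and wasting genes were higher and 1 lower, led by the muscle ubiquitin ligases TRIM63 (6.96) and FBXO32 (5.16). Of all genes tested, 14.7% were higher and 47.1% lower in muscle. Of 19 tested proteasome factors outside the members, 6 were higher in muscle and 3 lower. These included the proteasome gene activator NFE2L1 (1.85), the proteasome-binding protein ZFAND5 (2.18) and the activator PSME4 (2.02). In heart 1 of the 19 factors was higher and 7 lower, against 14.3% of all genes higher and 37.2% lower. In thymus 2 were higher and 4 lower, against 32.9% of all genes higher and 36% lower. PSME2, an interferon-induced activator subunit, was lower in brain (-1.38) and muscle (-1.07) and higher in liver (0.77).

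Of the 70 tissue calls of members, 35 passed the threshold under each of 5 other settings, namely a pseudocount of 0.1, no filter, a filter at 5 FPKM, quantile normalisation and no animal block. They include PSMB8 and PSMB9 in brain, thymus and lung, PSMB5 in brain, muscle and thymus, PSMB10 in muscle, thymus and heart, PSMA2 in thymus and heart, and PSMD10 in muscle and heart. The KO animals did not enter these tests. In 49 of the 70 cases both KO animals had the same sign as the WT difference, in 17 cases 1 KO animal did, and in 4 cases neither did. All 4 lung cases and 10 of 14 thymus cases had the sign in both KO animals, against 6 of 12 in heart.

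The balance of each immunoproteasome gene to the subunit it replaces was expressed as a log2 ratio of FPKM within each animal, which is free of scaling between libraries. Log2 ratios were averaged over an animal's repeat libraries, and percents were taken from its averaged levels, so the 2 differ where repeats do, as in WT2 brain, where PSMB9 had 3.18 and 0.945 FPKM. PSMB9 was about as abundant as PSMB6 in thymus, with log2 ratios of -0.09 and 0.29 in KO animals, against -0.05 and 0.39 in WT animals. In fetal muscle that ratio was -4.90 and -5.15 at month 2, and -4.16 and -4.33 at month 4. In newborn brain it was -5.31 and -4.86 in KO animals, against -5.74 and -5.73 in WT animals. PSMB8 reached 35.6% and 84.6% of the PSMB5 level in KO thymus, against 89.0% and 65.4% in WT thymus. In brain PSMB8 stood at 0.697% and 0.193% of PSMB5 in KO animals, against 0.612% and 0.384% in WT animals. PSMB10 ran from 2.00% of PSMB7, in KO2 muscle, to 40.8%, in WT3 lung, and its ratio to PSMB7 in brain, between 13.6% and 19.5%, was above that of the other pairs, which reached at most 3.55% there.

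Between the genotypes these ratios were compared in 21 cases, 3 pairs in 7 tissues, by exact two-sided permutation tests over animals, where the smallest p that 2 against 2 animals can give is 0.33 and no test could reach 0.05. Without any genotype difference, animals would separate fully, in either direction, with that same probability of 0.33, and the 7 tissues come from the same animals. The share of other gene pairs that separate was not computed, so the cases without overlap are given as values only. The PSMB10 to PSMB7 ratio was lower in KO than in WT animals, with no overlap, in heart (difference -1.28), liver (-1.16), muscle (-0.95) and thymus (-0.59). In thymus KO3 (-1.77) lay next to the WT animals (-1.76 and -1.77), and KO2 (-2.95) below them. In heart the log2 ratio was -2.80 and -3.29 in KO animals, against -2.02 and -1.52 in WT animals. The KO mean of this ratio was below the WT mean in the other 3 tissues too, where the animals overlapped. The PSMB9 to PSMB6 ratio was higher in KO animals, with no overlap, in muscle (1.11), brain (0.65) and kidney (0.60). The PSMB8 to PSMB5 ratio was lower in KO heart (-1.90) and higher in KO kidney (0.59), again with no overlap, and the other 12 cases overlapped. In heart the summed interferon response level was 93.5 and 127 FPKM in KO animals, against 172 and 897 FPKM in WT animals, with 15 of 16 listed genes in the table and none at 0. Of that sum, IFI27 alone had 36.7 and 9.61 FPKM in KO animals, against 76.2 and 739.6 FPKM in WT animals, and the part of these genes in the ratios was not tested.

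**Figure D3:**
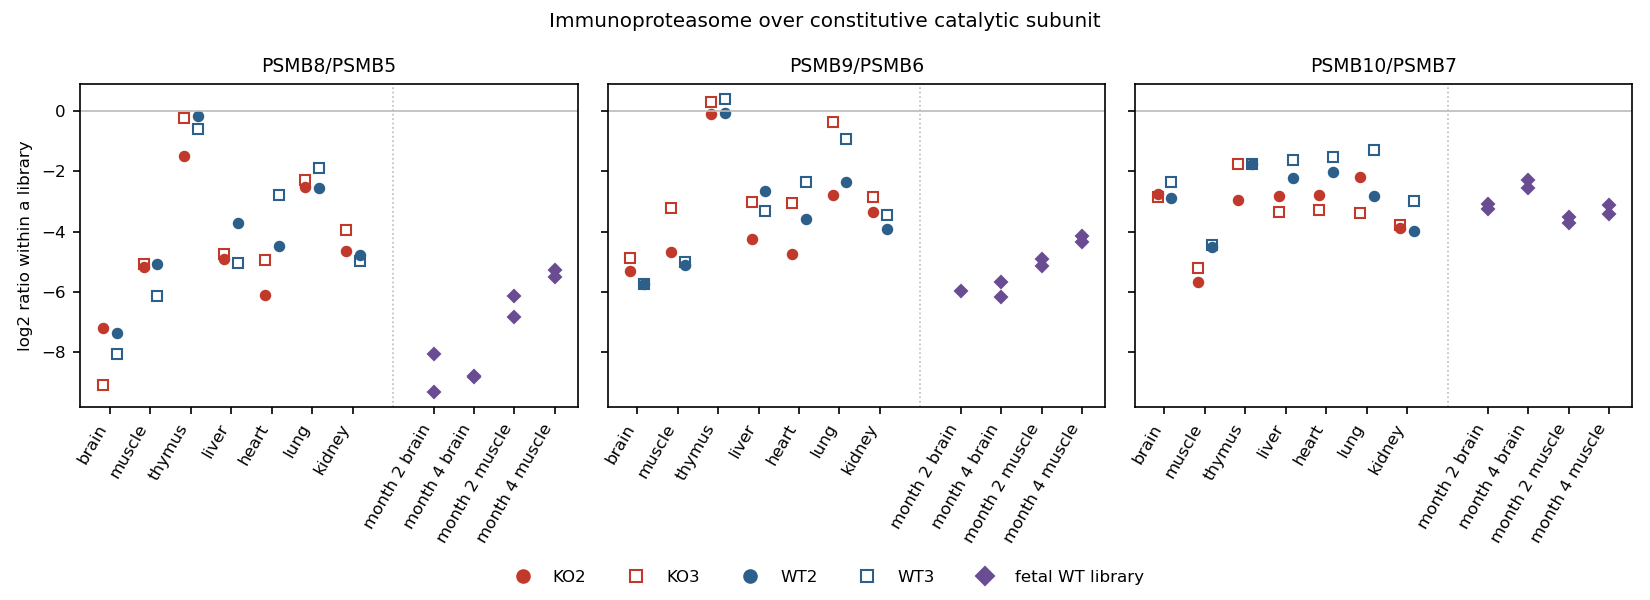
Log2 ratio of FPKM of each immunoproteasome gene to the constitutive subunit it replaces, for each newborn animal in 7 tissues and each wild-type fetal library in 4 groups. The PSMB9 to PSMB6 ratio is near 0 in thymus, between -0.09 and 0.39, and -4.86 or lower in newborn brain.

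No member passed the threshold between KO and WT in any tissue. In limma's test, 0 of 34 members were called in brain (0% of all genes called), and 0 of 35 in muscle (2.32%), thymus (0.00772%), liver (1.1%), heart (0.18%), lung (0%) and kidney (5.78%). After averaging each animal over its 7 tissues, 0 of 35 were called (0.492%). The share of all genes called lower was 4.76% in kidney, 1.58% in muscle, 0.0734% in heart and 0.239% in the mean of the tissues. At an unadjusted p under 0.05, 12 members were below the threshold in liver (14.7% of all genes), 11 in muscle (13.5%), 10 in kidney (21.7%), 2 in brain (12.7%), 2 in heart (9.2%), 0 in thymus (5.92%), 0 in lung (7.27%), and 7 in the mean of the tissues (13.3%). The KO change in 1 tissue against the mean KO change in the other 6 called 0 of 35 members in all 7 tissues, where 0% of all genes were called in brain and muscle, 0.00665% in thymus and in lung, 0.186% in heart, 0.226% in liver and 2.84% in kidney. At an unadjusted p under 0.05 that test gave 9 members in heart (12.7% of all genes), 6 in liver (13.8%), 6 in kidney (23.6%), 5 in brain (7.27%), 3 in muscle (13%), 0 in thymus (12.2%) and 0 in lung (4.7%). The members with the smallest p in that test were, in heart, PSMD10 (0.98, adjusted p = 0.159), PSMB2 (1.03, adjusted p = 0.255), PSMD9 (0.78, adjusted p = 0.303). In liver they were PSMA7 (-1.13, adjusted p = 0.184), PSMB2 (-1.12, adjusted p = 0.212), PSMB9 (-1.05, adjusted p = 0.221), and in kidney PSMC5 (-0.66, adjusted p = 0.122), PSMD9 (-0.59, adjusted p = 0.156), PSMB3 (-0.53, adjusted p = 0.156). Brain gave PSMA7 (0.99, adjusted p = 0.684), PSMA3 (0.98, adjusted p = 0.684), PSMB2 (0.86, adjusted p = 0.684), and muscle PSMC4 (-0.76, adjusted p = 0.319), PSMB4 (-0.65, adjusted p = 0.357), PSMB3 (-0.57, adjusted p = 0.381). Thymus gave PSMD10 (-0.55, adjusted p = 0.475), PSMB5 (0.44, adjusted p = 0.522), PSMA2 (-0.58, adjusted p = 0.528), and lung PSMC5 (0.49, adjusted p = 1), PSMD9 (-0.38, adjusted p = 1), PSMA7 (0.33, adjusted p = 1).

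The medians over the members lay below 0 in muscle, liver, kidney, lung and thymus. The median KO minus WT difference was -0.82 in liver, -0.81 in muscle, -0.51 in kidney, -0.47 in lung and -0.36 in thymus, against -0.19, -0.0001, -0.04, -0.17 and -0.21 over all genes tested in those tissues. After quantile normalisation these medians were -0.48 in liver, -0.59 in muscle, -0.20 in kidney, -0.35 in lung and -0.23 in thymus. In heart the median was 0.11 as deposited and -0.05 after quantile normalisation, and in brain it was -0.0011 and 0.19. Over the mean of the tissues it was -0.42, against -0.11 over all genes, and 33 of 35 members were below 0. After quantile normalisation it was -0.26, against -0.03 over all genes, and 6 of 35 members were above 0. The share of all genes below 0 was not computed.

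Separation of the libraries showed the same tissues. In muscle and in liver 24 of 35 members (68.6%) had all 4 KO libraries below all 4 WT libraries, against 15.4% of all genes in muscle and 25% in liver. In kidney 22 of 35 members (62.9%) did, against 23.7% of all genes. In lung 8 members (22.9%) did, against 20.6%, in thymus 6 (17.1%), against 19.8%, and in brain 7 of 34 (20.6%), against 28.2%. In heart 1 member (2.86%) was wholly lower, against 10.5%, and 7 (20%) wholly higher, against 12.6%. No member was wholly higher in thymus (9.81% of all genes), liver (11.4%) or lung (8.04%). The members are subunits of 1 complex and do not vary independently, and the 4 libraries of a genotype come from 2 animals.

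The lower medians in muscle, liver and kidney ran through most subunit groups. In muscle the median was -1.05 over the constitutive beta ring, -0.90 over the base ATPases, -0.85 over the alpha ring, -0.74 over the non-ATPase subunits and 0.07 over the assembly chaperones. In liver it was -1.25 over the immunoproteasome genes, -0.97 over the alpha ring, -0.86 over the beta ring, -0.82 over the ATPases and -0.70 over the non-ATPases. In kidney it was -0.93 over the beta ring and -0.72 over the ATPases. The chaperones had medians of -0.10 in liver and -0.47 in kidney. In muscle and kidney PSMB8 and PSMB9 overlapped between the genotypes, while PSMB10 was lower in KO animals without overlap. PSMB9 had 3.55 and 10.1 FPKM in KO muscle, against 5.30 and 6.63 FPKM in WT muscle. PSMB8 had 2.86 and 5.90 FPKM in KO kidney, against 3.75 and 3.78 FPKM in WT kidney.

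The members with the smallest p in these tissues were core genes, apart from PSMD11 in muscle. In kidney PSMB3 had 48.6 and 51.1 FPKM in KO animals, against 94.8 and 109.6 FPKM in WT animals, a difference of -1.02 ± 0.27 (adjusted p = 0.0633). PSMB2 had 24.1 and 28.9 FPKM in KO kidney, against 49.5 and 63.7 FPKM in WT kidney (-1.06, adjusted p = 0.0651). PSMB1 followed in kidney, with 61.0 and 82.7 FPKM in KO animals, against 151 and 143 FPKM in WT animals (-1.04, adjusted p = 0.0722). All 3 are structural subunits of the beta ring, and in each the groups did not overlap. In liver PSMB2 had 18.2 and 24.6 FPKM in KO animals, against 51.1 and 92.2 FPKM in WT animals (-1.66 ± 0.48, adjusted p = 0.143). PSMB1 (-1.24, adjusted p = 0.218) and PSMB10 (-1.27, adjusted p = 0.259) came next in liver. In muscle the lid subunit PSMD11 had 12.6 and 20.7 FPKM in KO animals, against 30.6 and 54.3 FPKM in WT animals (-1.29 ± 0.48, adjusted p = 0.193). PSMA1 (-1.20, adjusted p = 0.201) and PSMB6 (-1.06, adjusted p = 0.211) came next in muscle.

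In thymus the smallest p belonged to the chaperone PSMD5 (-0.71, adjusted p = 0.7), then PSMB10 (-0.74, adjusted p = 0.702) and PSMB1 (-0.62, adjusted p = 0.705). In lung it belonged to PSMA2 (0.99, adjusted p = 0.806), PSMD11 (-0.81, adjusted p = 0.809) and PSMB2 (-0.81, adjusted p = 0.81). In brain PSMA2 came first (1.73, adjusted p = 0.388), with PSMD5 (-0.92, adjusted p = 0.388) and PSMD12 (-0.69, adjusted p = 0.392), and in heart PSMA2 (1.26, adjusted p = 0.291), with PSMD10 (1.32, adjusted p = 0.371) and PSMB5 (0.73, adjusted p = 0.567).

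Single animals differed within a genotype. Relative to the WT mean, the member median was -1.03 in muscle for KO2 and -0.55 for KO3, and in liver -1.02 for KO2 and -0.61 for KO3. In lung the order turned, with -0.07 for KO2 and -0.89 for KO3. Of the WT animals, WT2 lay below WT3 in 6 of 7 tissues, by as much as -0.30 against 0.30 in liver. In kidney the member median was -0.64 for KO2 and -0.49 for KO3, against -0.18 and 0.07 over all genes tested. In brain it was -0.07 for KO2 and 0.0009 for KO3, against -0.20 and -0.17 over all genes tested. Outside the members, KO2 stood apart in BAG3, which encodes a partner of HSP70 chaperones and was picked out, as was UBB, after its values were seen. BAG3 was higher in KO2 than in the other 3 animals in all 7 tissues. In brain it had 305 FPKM in KO2 and 2.45 FPKM in KO3, against 3.65 and 1.90 FPKM in WT animals, and in thymus 402 and 9.07 FPKM, against 7.79 and 6.92 FPKM. The polyubiquitin gene UBB was highest in KO2 in 6 of 7 tissues, with 1259 FPKM in KO2 brain and 305 FPKM in KO3 brain, against 317 and 407 FPKM in WT brain. Their part in the members' differences was not tested.

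Markers of other cells moved with genotype in muscle, liver and kidney, and in other tissues too. The summed erythroid level was 112 and 208 FPKM in KO muscle, against 1079 and 1112 FPKM in WT muscle. In liver it was 1715 and 2023 FPKM in KO animals, against 4402 and 3260 FPKM in WT animals, and in kidney 183 and 40.1 FPKM, against 1514 and 1360 FPKM. It covers 7 of 8 listed genes, of which none was at 0 in all libraries of these tissues. HBB was lower in all 3 (-3.29 in muscle, -2.58 in liver, -4.73 in kidney) and HBZ higher (3.80, 6.24 and 2.06). The erythroid sum was not lower in these tissues alone. It was 942 and 247 FPKM in KO heart, against 3534 and 5494 FPKM in WT heart. In thymus it was 212 and 230.5 FPKM in KO animals, against 1445 and 1289 FPKM in WT animals, and in brain 121 and 157 FPKM, against 289 and 378 FPKM. Lung overlapped, with 408 and 3187 FPKM in KO animals, against 2729 and 2997 FPKM in WT animals. The summed level of 10 macrophage and microglia markers, none at 0 throughout, was 3.27 and 54.5 FPKM in KO muscle, against 111 and 59.8 FPKM in WT muscle. In liver it was 74.0 and 301 FPKM in KO animals, against 1016 and 962 FPKM in WT animals, and in brain KO3 stood alone at 3.22 FPKM, with 189 FPKM in KO2, against 205 and 216 FPKM in WT animals. The part of these markers in the members' differences was not tested.

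Genes around the proteasome passed the threshold in muscle where the members did not. The ubiquitin ligase TRIM63 had 9.44 and 73.2 FPKM in KO muscle, against 375 and 547 FPKM in WT muscle, a fall of -4.03 (adjusted p = 0.000221). FBXO32, the other ligase of muscle wasting, had 4.64 and 31.6 FPKM in KO muscle, against 110.0 and 135 FPKM in WT muscle (-3.18, adjusted p = 0.00304). NFE2L1, the activator of proteasome genes, had 37.7 and 75.3 FPKM in KO muscle, against 148.5 and 213 FPKM in WT muscle (-1.72, adjusted p = 0.0368). ZFAND5 also fell (-1.84, adjusted p = 0.0393). These 4 were the only genes called among the 12 ubiquitin and wasting genes and the 19 tested proteasome factors in muscle. In kidney PSMG4, an assembly factor of the core, had 5.03 and 6.97 FPKM in KO animals, against 20.5 and 26.3 FPKM in WT animals (-1.80, adjusted p = 0.0141), the only one of 19 factors called. In brain, thymus, liver, heart and lung, 0 genes of these lists and of the class I list were called.

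PSMA2, of the alpha ring, had a KO mean above the WT mean in all 7 tissues. In brain it had 173 and 93.3 FPKM in KO animals, against 43.1 and 32.8 FPKM in WT animals. In muscle it had 70.6 and 85.2 FPKM in KO animals, against 48.6 and 28.5 FPKM in WT animals, and in liver 49.7 and 71.5 FPKM, against 33.5 and 47.9 FPKM. The KO values lay above the WT values in both. In heart it had 35.3 and 58.4 FPKM in KO animals, against 20.1 and 16.9 FPKM in WT animals. Kidney gave 56.0 and 85.3 FPKM in KO animals, against 39.3 and 29.6 FPKM in WT animals, and thymus 98.5 and 87.7 FPKM, against 58.9 and 71.9 FPKM. Lung overlapped, with 60.2 and 194 FPKM in KO animals, against 62.6 and 46.6 FPKM in WT animals. The difference ran between 0.52 in thymus and 1.73 in brain, and its direction held in each tissue under every setting run.

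PSMA2 passed the threshold in no tissue in the main fits. It did in brain in 1 fit of all newborn tissues (adjusted p = 0.029), and in kidney after quantile normalisation. With a lone KO animal left, its difference was 2.18 in brain without KO3 and 1.30 in kidney without KO2. The PSMA2 difference over the mean of the tissues was 1.01 ± 0.27 (adjusted p = 0.152), where 74 of all 15038 genes were called. With libraries as replicates and the animal as a correlated unit, the adjusted p was 0.027, and 954 genes were called. In 1 fit of all newborn tissues it was 0.000414, and 4021 genes were called. That fit counts the 7 tissues of an animal as independent replicates, which they are not. Set against the mean log2 level of the other alpha-ring genes in the same animal, PSMA2 was 1.42 and 0.61 in KO brain, against -0.22 and -0.94 in WT brain. In muscle the same value was 1.12 and 0.75 in KO animals, against -0.36 and -1.58 in WT animals. KO animals stood above WT animals on this measure in 6 of 7 tissues, lung being the exception, with mean differences of 0.94 in thymus to 1.90 in muscle. These are tissues of the same animals, and the share of other genes that separate on such a measure was not computed. The measure also holds the change of the other alpha-ring genes, which were lower in KO muscle and liver. There PSMA2 itself differed by 1.04 and 0.56, against 1.90 and 1.58 on this measure. The span of PSMA2 overlaps a pseudogene, LOC102133266, in the T2T-MFA8v1.1 annotation, and reads shared between them cannot be told apart.

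On the log2 scale PSMD10 had a KO mean above the WT mean in 6 of 7 tissues. Of these, thymus showed no change (0.0028, limma adjusted p = 0.999), and its mean FPKM was lower in KO than in WT animals. In heart it had 15.9 and 8.45 FPKM in KO animals, against 3.22 and 5.09 FPKM in WT animals (1.32 ± 0.47, adjusted p = 0.371). In muscle it had 10.7 and 10.1 FPKM in KO animals, against 4.47 and 5.41 FPKM in WT animals. The groups did not overlap in either, the 2 tissues where PSMD10 was lowest in WT animals. In liver the difference was -0.10. After quantile normalisation the KO mean was above the WT mean in 7 of 7 tissues, and with single animals left out in 4 to 7 of 7. These counts too come from tissues of the same animals, and the share of other genes was not computed.

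**Figure D4:**
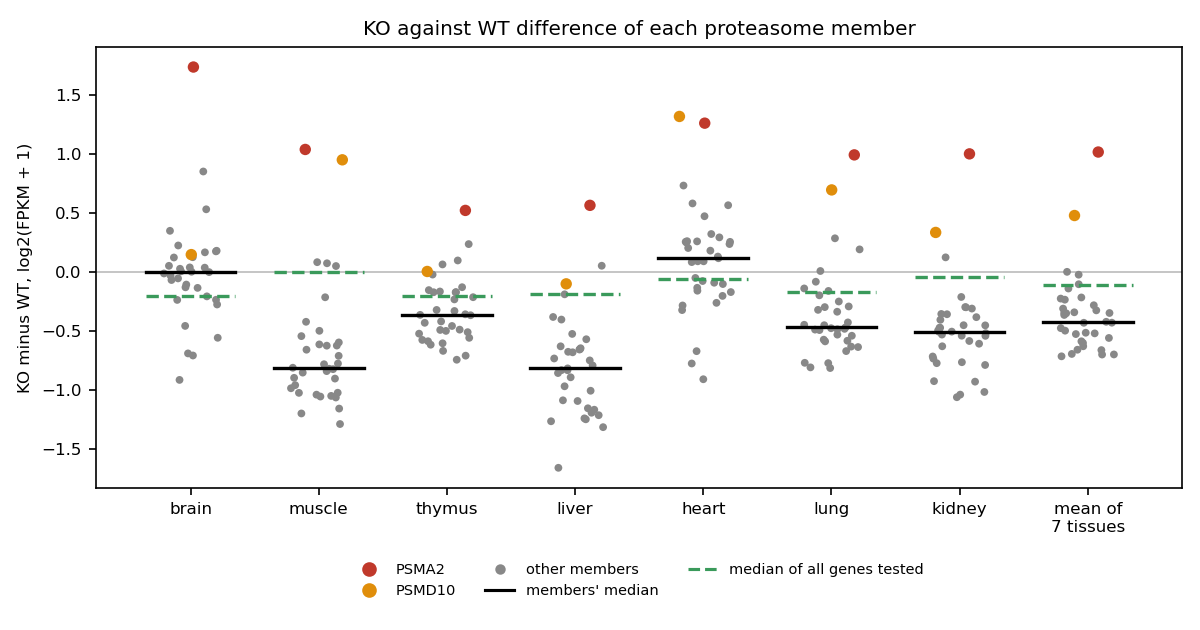
KO minus WT difference in log2(FPKM + 1) of each tested member in 7 newborn tissues and in the mean of the tissues, 1 point per gene, with a solid bar at the members' median and a dashed bar at the median of all genes tested. Most members lie below 0 in muscle, liver and kidney, with medians of -0.81, -0.82 and -0.51, while PSMA2 lies above 0 in all 7 tissues, up to 1.73 in brain.

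Between gestation months, members changed in fetal muscle and passed the threshold in no case in fetal brain. In fetal brain at month 4 against month 2, limma called 0 of 34 members (4.01% of all genes), and 1 had an unadjusted p under 0.05 (19.1% of all genes). That was PSMB10, with 15.2 and 23.7 FPKM at month 4, against 10.3 and 11.7 FPKM at month 2 (0.74 ± 0.25, adjusted p = 0.145). PSMB9 had 1.09 and 2.19 FPKM at month 4, against 1.07 FPKM and a listed 0 at month 2 (0.84, adjusted p = 0.272), and PSMD8 differed by 0.49 (adjusted p = 0.329). Leaving out the first month 2 library gave 1 call, higher at month 4.

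In fetal muscle 6 of 35 members rose and 5 fell between month 2 and month 4, with 37.9% of all genes called. PSMA2 had 9.19 and 10.1 FPKM at month 4, against 36.2 and 38.9 FPKM at month 2, a fall of -1.85 ± 0.18 (adjusted p = 9.17e-05). It alone of the 11 passed the threshold under all 9 other settings run. Relative to the other alpha-ring genes of the same library, PSMA2 was -2.07 and -1.96 at month 4, against -0.45 and -0.31 at month 2. Core subunits PSMB3 (-0.89), PSMB7 (-0.86) and PSMB4 (-0.51) and the lid subunit PSMD8 (-0.57) also fell. PSMB7 had 103 and 119 FPKM at month 4, against 203 and 200.2 FPKM at month 2.

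The genes that rose in fetal muscle belonged to the regulatory particle, its assembly and the immunoproteasome. PSMD5 had 4.55 and 3.28 FPKM at month 4, against 1.14 and 0.639 FPKM at month 2 (1.38 ± 0.26, adjusted p = 0.00274). PSMD2 had 52.7 and 54.4 FPKM at month 4, against 30.5 and 24.4 FPKM at month 2 (0.95 ± 0.18, adjusted p = 0.00319). PSMD12 (0.82), PSMD11 (0.59), PSMB8 (0.73) and PSMB9 (0.59) rose as well. PSMB8 had 2.51 and 2.24 FPKM at month 4, against 1.35 and 0.747 FPKM at month 2, and PSMB9 had 6.33 and 6.89 FPKM, against 4.33 and 3.81 FPKM. The count of members called ranged from 3 to 20 as single libraries were left out, with 3 without either month 2 library and 20 without the second month 4 library.

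Of 19 tested proteasome factors outside the members, 8 rose and 6 fell in fetal muscle. Of all genes tested there, 22.3% rose and 15.7% fell. NFE2L1 rose by 1.17 and PSME4 by 0.86, while PSMG4 fell to 13.8 and 13.1 FPKM at month 4, against 31.8 and 34.3 FPKM at month 2 (-1.24). Of 11 interferon response genes 6 rose, and of 8 class I genes 3 rose. The summed macrophage level was 73.4 and 79.1 FPKM in muscle at month 4, against 176 and 183 FPKM at month 2, and 6 of its 10 markers fell. In brain it was 48.9 and 73.3 FPKM at month 4, against 19.2 and 13.1 FPKM at month 2, where 6 of 9 tested markers rose (3.28% of all genes rose). None of the 10 was at 0 in both libraries of a group, and the part of these cells in the members' changes was not tested.

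In fetal muscle against fetal brain at month 2, 4 of 7 constitutive beta-ring genes and 3 of 5 ATPases were higher, and 7 of 10 non-ATPase subunits were lower and 2 higher. Of all genes tested there, 25.6% were higher and 49.2% lower. At month 2, 12 of 34 members were higher and 11 lower in muscle than in brain, with 74.9% of all genes called (14 higher and 6 lower after quantile normalisation). The 4 beta-ring genes PSMB7 (1.03), PSMB3 (0.92), PSMB6 (0.88) and PSMB4 (0.83) were higher in muscle, as were PSMB9 (1.81) and PSMB10 (0.54), the ATPases PSMC3 (0.68), PSMC5 (0.52) and PSMC4 (0.50), and PSMA7 (0.51). The lower ones were led by PSMD5 (-1.49), PSMD2 (-1.18), PSMD14 (-1.01), PSMD12 (-0.96), PSMD1 (-0.86), PSMD11 (-0.82), PSMD9 (-0.72), PSMD10 (-0.72), PSMA5 (-0.61) and PSMD3 (-0.46). The 2 non-ATPase subunits higher in muscle were PSMD4 (0.49) and PSMD8 (0.41). After quantile normalisation the non-ATPase subunits PSMD3 and PSMD7, and PSMD9, PSMD10 and PSMA5, were no longer called lower, nor PSMA7 higher.

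At month 4, 2 of 35 members were higher and 5 lower in muscle than in brain, with 59.9% of all genes called (3 higher and 1 lower after quantile normalisation). PSMB9 (1.56) and PSMB8 (1.44) were higher in muscle, where PSMB8 had 2.51 and 2.24 FPKM, against 0.216 and 0.265 FPKM in brain. PSMA2 was lower in muscle, with 9.19 and 10.1 FPKM, against 26.2 and 33.5 FPKM in brain (-1.52 ± 0.22, adjusted p = 0.000287). PSMD14 (-0.80), PSMD1 (-0.71), PSMB10 (-0.68) and PSMD10 (-0.56) were lower too.

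The month change in muscle was tested against the month change in brain, which called 1 of 34 members higher and 4 lower, with 14% of all genes called (2 higher and 2 lower after quantile normalisation). PSMA2 differed most (-1.82 ± 0.26, adjusted p = 0.00318), since its level in brain was 26.2 and 33.5 FPKM at month 4, against 28.8 and 32.2 FPKM at month 2. PSMB10 (-1.22), PSMB7 (-0.91) and PSMB4 (-0.90) were lower by this test and PSMD2 (0.86) higher. Leaving out single libraries gave 1 to 8 calls.

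**Figure D5:**
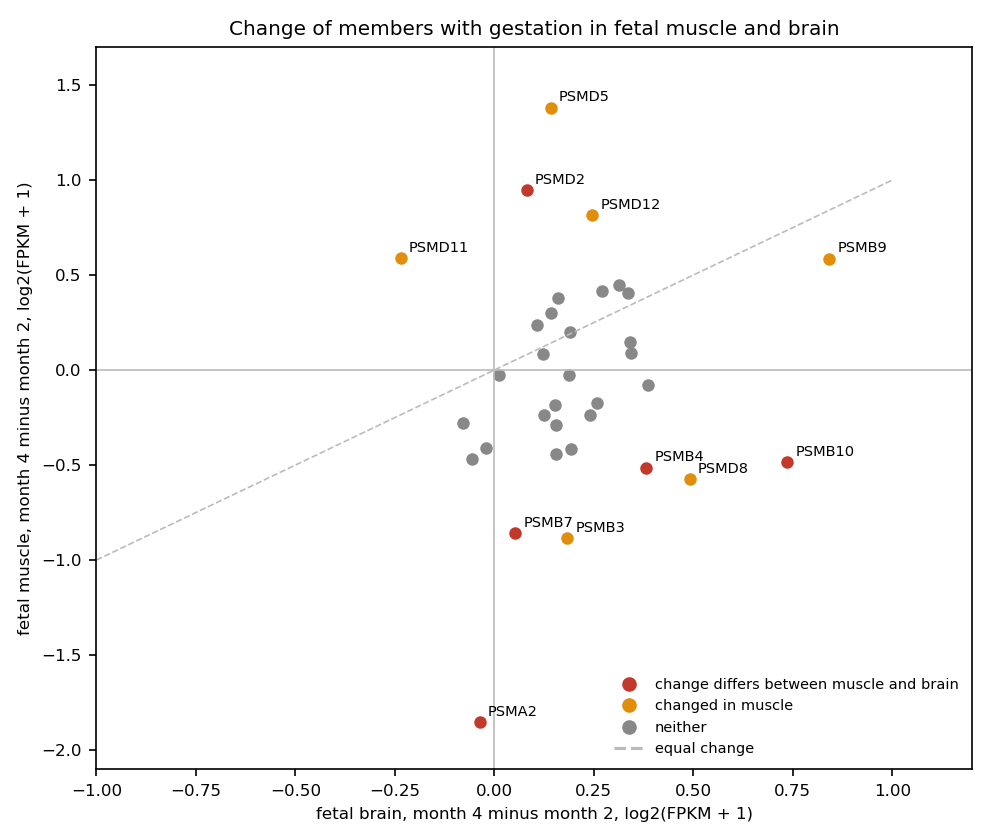
Month 4 minus month 2 difference of each tested member in fetal brain (horizontal) and fetal muscle (vertical), in log2(FPKM + 1), 1 point per gene tested in both tissues, so that PSMB8 is not shown, with a dashed line of equal change. PSMA2 lies lowest, at -1.85 in muscle, and PSMD5 highest, at 1.38 in muscle, while no member passed the threshold in brain.

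Set beside the newborn WT animals, whose table was made separately so that no test was run, PSMA2 in muscle had 36.2 and 38.9 FPKM at month 2, 9.19 and 10.1 FPKM at month 4, and 48.6 and 28.5 FPKM in newborns. PSMB8 in muscle had 1.35 and 0.747 FPKM at month 2, 2.51 and 2.24 FPKM at month 4, and 3.68 and 2.57 FPKM in newborns. In brain PSMB8 stayed below 1 FPKM throughout, with 0.285 and 0.143 FPKM at month 2, 0.216 and 0.265 FPKM at month 4, and 0.665 and 0.498 FPKM in newborns. PSMB10 in brain had 10.3 and 11.7 FPKM at month 2, 15.2 and 23.7 FPKM at month 4, and 15.8 and 26.6 FPKM in newborns, so it was again the most abundant of the 3 inducible genes there.

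Across the 28 newborn values, which share animals, tissues and scaling, members of the complex varied together. Pearson's r of a gene with the mean of the other constitutive core genes, in log2(FPKM + 1), had a median of 0.80 in the alpha ring, 0.78 in the beta ring, 0.80 in the base ATPases and 0.69 in the other 19S subunits, against 0.31 in the chaperones and 0.27 in the immunoproteasome. The exceptions in the core were PSMA2 (-0.37) and PSMB5 (0.18), and PSMB5 had r = -0.72 with the mean of the immunoproteasome genes. Pairs within the immunoproteasome had r between 0.45 and 0.93.

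Of 9175 genes with a mean of 5 FPKM or more, those most like the immunoproteasome mean were ATP2A3 (r = 0.919), LGALS9 (0.914), TMC6 (0.91), ARHGEF1 (0.906), STK10 (0.902), LOC102122672 (0.896), ARHGDIB (0.895), BTN3A2 (0.89), PTPRC (0.888) and ARHGAP30 (0.887). PTPRC is the leukocyte marker CD45. Those most like the mean of the constitutive core were COPS3 (0.846), a subunit of the COP9 signalosome, then SNAPC5, GLRX3, CDC123, KARS, LSM1, UCHL3, SCAND1, TOMM22 and SSSCA1 (0.791). These values are descriptions over 28 points and were not tested.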

How the data were processed

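Homogenisation was in liquid nitrogen, per the labels' protocols, with RNA extracted with TRIzol and an RNeasy kit, and the libraries prepared with a TruSeq RNA kit for a HiSeq X instrument. Tools named in the submitters' processing notes are Cufflinks 2.0.2, HISAT 0.1.6 and CASAVA, without their roles. Neither a genome build, an annotation nor a strand setting is named there. The authors deposited FPKM values in a newborn and a separate fetal table, each with 28141 genes and no 2 identical libraries. FPKM sums ran from 333919 to 587030 over newborn and from 311092 to 553069 over fetal libraries.

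Repeat libraries of an animal were averaged as log2(FPKM + 1). A separate model per comparison was run in R 4.3.3 with limma 3.58.1 (lmFit, eBayes with trend) on genes with a mean of 1 FPKM or more, at a Benjamini-Hochberg adjusted p of 0.05 over all genes tested. Tissue contrasts in WT animals had the animal as a block. Fetal tests stayed within the fetal table. The code was tested on simulated data. Alternatives were a pseudocount of 0.1, no filter, a filter at 5 FPKM, quantile normalisation, single libraries as replicates with a within-animal correlation, 1 fit of all newborn tissues, replicate blocks and leaving out animals or libraries.

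The members, gene lists and tests were chosen with earlier results of these data known. Named genes were the 3 catalytic pairs, all members past the threshold (the 10 largest where more passed in a direction) or else the 3 with the smallest p, and at most 4 genes per other list past the threshold, and the 10 genes most alike in pattern. Genes were matched by symbol, with 3 list genes (GBP1, LCK, PSMC6) found under LOC identifiers. All 36 members matched the RefSeq table of T2T-MFA8v1.1, used for names and neighbours alone.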

Additional observations from a re-analysis of the deposited data

Results flagged for a closer look

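The month 4 minus month 2 change differed between fetal muscle and fetal brain for 5 members, by limma's test of the difference itself (2 libraries per month and tissue, adjusted p under 0.05). PSMA2 gave -1.8174 in log2(FPKM + 1), and this call held under all 13 other settings run, with adjusted p between 0.00259 and 0.0294. PSMB10 gave -1.2196 (adjusted p 0.0307), and it passed the threshold in 6 of 13 other settings. PSMB7 gave -0.911 (adjusted p 0.0496, 2 of 13), PSMB4 gave -0.8955 (adjusted p 0.0455, 3 of 13) and PSMD2 gave 0.8645 (adjusted p 0.049, 2 of 13). All 5 kept their sign in all 13. The adjusted p over those settings ran from 0.0135 to 0.132 for PSMB10, 0.0268 to 0.193 for PSMB7, 0.0291 to 0.184 for PSMB4 and 0.0251 to 0.204 for PSMD2.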

How the results depend on the processing

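Of the alternatives run for single members, 0 reversed a direction that had been called. In 1 fit of all newborn tissues, KO against WT called 1 member in brain (635 of all 13392 genes), 4 in liver (891 of 12207) and 18 in the mean of the tissues (4021 of 15038). With libraries as replicates and the animal as a correlated unit, it called 7 in kidney (1566 of 13937) and 3 in the mean (954 of 15038). The KO change in 1 tissue against the other 6 then called 16 in brain, 12 in muscle, 2 in thymus, 17 in liver, 20 in heart, 1 in lung and 6 in kidney. Of all 15038 genes that setting called 4211 in brain, 3414 in muscle, 3502 in thymus, 3884 in liver, 3035 in heart, 2276 in lung and 3359 in kidney. After quantile normalisation there was 1 call in KO kidney, 8 in WT kidney against other tissues, and 4 in fetal muscle against brain at month 4. Without a filter on low values the calls were 1 in fetal muscle between months, 14 in fetal muscle against brain at month 2 and 1 in the test of the month changes.

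Leaving out 1 animal or library gave 0 to 1 calls in KO brain, 0 to 5 in KO kidney, 0 to 3 for the KO change in brain against other tissues, 0 to 1 in fetal brain and 3 to 20 in fetal muscle between months. It gave 9 to 18 for muscle against brain at month 2, 2 to 6 at month 4, and 1 to 8 in the test of the month changes. A lone sample is then assumed to vary like the other groups. The calls over all genes moved in these fits as well, so the counts are no result about the members. WT tissue contrasts without 1 animal leave no residual spread and have no count.

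Without the replicate block, WT tissue calls were 7 in brain, 8 in thymus, 5 in liver, 2 in lung and 1 in kidney. No label states that library or animal numbers pair samples between groups, and with 2 pairs each the deviation correlations, between -0.231 and 0.365, do not settle it. With the replicate block, KO against WT still called 0 members, fetal brain 0, fetal muscle 11, muscle against brain 21 at month 2 and 10 at month 4, and the test of the month changes 4. In fetal brain the crossed pairing, chosen after seeing the data, called 0. Unknown depth and 2 animals or libraries per group limit every test, and the cause of these shifts was not tested.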
